A study of Mus musculus with 8 samples.

Results

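The mRNA decay regulators described here are 10 mouse genes whose proteins bind or cut messenger RNAs of inflammatory genes: Zc3h12a, Zc3h12b, Zc3h12c and Zc3h12d (the regnase family), Rc3h1 and Rc3h2 (the roquins), Zfp36, Zfp36l1 and Zfp36l2 (the tristetraprolin family) and N4bp1. They were taken by name. Each was read from a probe set that names that gene alone, and a gene with several was read from the probe set chosen by its mean log2 level over all 8 arrays, the highest being used. That rule found all 10 genes among the 22180 genes tested, on 11 of 34390 probe sets. Only Zfp36l1 had more than 1 probe set. The list was drawn up with earlier results of the same genotype comparison known, so the differences below describe these genes and do not test the list.

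The cells were conventional dendritic cells (cDC) that carry CD103 and CD11b, sorted from the mesenteric lymph nodes of male C57BL6 mice, 8 weeks old and fed control chow. Of 8 arrays, 4 came from mice with the hBcl-2 transgene, human BCL2 under the promoter of CD11c, and 4 from wild-type littermates. That promoter is active in cells that express CD11c, so the transgene is not limited to the sorted population. Every array was hybridised with RNA pooled from 2 to 3 samples. Which animals made up each pool is not given, so p-values measure the spread between pools (n = 4 per group throughout). The probes are made for mouse transcripts and the transgene is human, so the genotypes rest on the labels alone.

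Stimulated myeloid cells make cytokine mRNAs that are degraded within a short time, which limits how much protein is made. Proteins of the tristetraprolin family bind AU-rich elements in these mRNAs and recruit the CCR4-NOT complex, which removes the poly(A) tail. Regnases carry an RNA-cutting PIN domain and act on stem-loops, which the roquins also bind while recruiting deadenylating and decapping enzymes. Inflammatory signals both induce several of these genes and switch off their proteins, by phosphorylation or by cleavage with the protease MALT1.

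The deposited values are log2 expression per probe set, made with the RMA method, and ran from 2.11 to 13.95. Array medians lay between 5.04 and 5.15. Transgenic replicate 4 differed most from its own group (mean correlation 0.970, against 0.976 to 0.985 on the other 7 arrays) and had a narrower spread over probe sets (SD 2.00 against 2.07 to 2.11). Of 10 measured cDC markers, Ccr7 (12.99 in wild type) and H2-Ab1 (13.00) were bright. Itgae and Itgam, which encode CD103 and CD11b, were dim at 5.66 and 5.57, near the 5.32 of the median gene. The mean level of the cDC markers was 9.17 on transgenic replicate 4 and 9.42 to 9.56 on the other 7 arrays.

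Zc3h12d fell in transgenic cDC, and the other 9 regulators did not pass the test. A gene is called changed here when limma's moderated test gives an adjusted p below 0.05 after Benjamini-Hochberg adjustment over all 22180 genes. Over all genes 1.69% were called, 0.848% lower and 0.839% higher, and since the list was drawn up with this comparison known, nothing is read from the count of 1 in 10. Of the 10 differences, 6 were negative and 4 positive, with a median of -0.04 on the log2 scale against -0.002 over all genes. At an unadjusted p below 0.05 in limma there were 3 regulators, where 13.2% of all genes had such a p. They were the regnases Zc3h12d and Zc3h12a, which were lower, and Zc3h12b, which was higher and dimmer than the median gene.

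**Figure D1:**
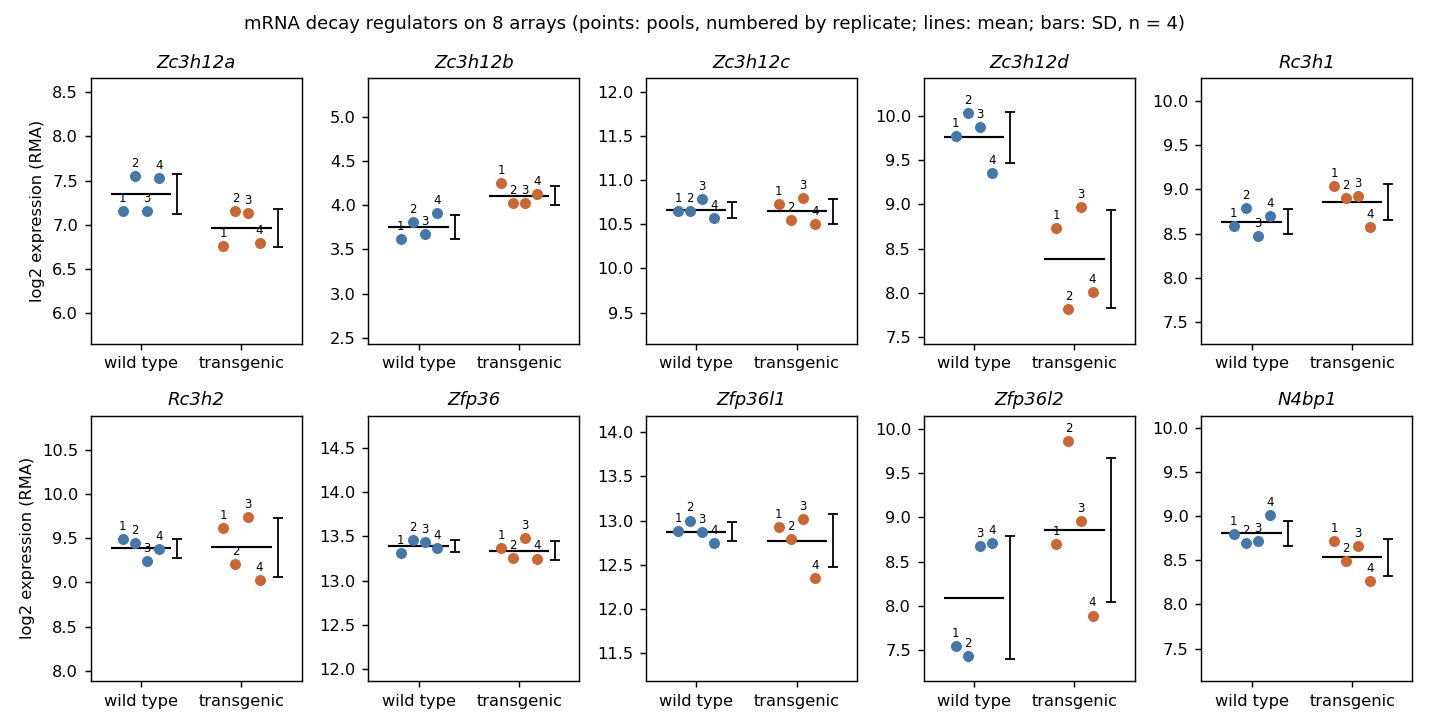
Log2 expression of the 10 regulators on each array, 1 panel per gene with a vertical axis spanning the same range in every panel. Points are pools numbered by replicate, lines are group means and bars are the SD (n = 4). Only Zc3h12d and Zc3h12b have groups that do not overlap, and Zfp36l2 has the widest spread within each group.

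Zc3h12d encodes regnase-4 (also called TFL), a member of the family best known from lymphocytes. It was at 9.77, 10.03, 9.88 and 9.36 on wild-type replicates 1 to 4 and at 8.73, 7.82, 8.97 and 8.01 on transgenic replicates 1 to 4. All 4 transgenic arrays lay below every wild-type array, and within the transgenic group replicates 2 and 4 were lower than replicates 1 and 3. The group means were 9.76 ± 0.29 and 8.38 ± 0.56 (SD, n = 4), a log2 fold of -1.38 (SE 0.25, 95% interval -1.94 to -0.81), or 2.60-fold lower expression (limma adjusted p = 0.0286). The transgenic range of 1.16 was wider than the wild-type range of 0.67.

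The sign of the fall of Zc3h12d was kept when arrays were left out, with log2 folds of -1.58 to -1.19, but the call was not. Without transgenic replicate 4 the log2 fold was -1.26 (adjusted p = 0.0551 in limma), and without transgenic replicate 2 it was -1.19 (adjusted p = 0.0590). Without wild-type replicates 1, 2 or 3 the adjusted p in limma was 0.0899, 0.0951 and 0.0895. It passed without wild-type replicate 4 (0.0460) or transgenic replicates 1 (0.0416) or 3 (0.0214). Without variance moderation the adjusted p was 0.181.

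Because Zc3h12d is known from lymphocytes, markers of B and T cells are given beside it. None of 8 measured B cell markers and none of 8 T cell markers passed limma's test. An unadjusted p below 0.05 in limma was found for 0 of each, beside 13.2% of all genes. The mean level of the B cell markers was 5.59 to 6.05 on wild-type and 5.53 to 6.09 on transgenic arrays, and that of the T cell markers 5.24 to 6.01 and 5.26 to 5.55. Of the B cell markers 5 folds were negative and 3 positive, from Ms4a1, which encodes CD20 (5.73 in wild type and 5.33 in transgenic arrays), to the receptor chains Cd79b (6.62 and 7.11) and Cd79a (6.09 and 6.58). Of the T cell markers 7 were negative and 1 positive, from Cd8b1 (6.28 and 5.83) to Cd3d (5.23 and 5.39), with Cd3e at 5.71 and 5.41. Both lists overlapped between groups. Among the 10 measured cDC markers 6 folds were negative and 4 positive, with a median of -0.10, and none passed. Of these 10 markers 3 had an unadjusted p below 0.05 in limma, beside 13.2% of all genes. The lowest were Zbtb46, a transcription factor of cDC (-0.42, SE 0.16), and Flt3, the receptor for the growth factor of dendritic cells (-0.37, SE 0.16). The highest were Sirpa (0.25, SE 0.15) and Itgax, which encodes CD11c (0.17, SE 0.15). On transgenic replicates 2 and 4 Zbtb46 read 8.07 and 8.11, against 8.51 and 8.80 on replicates 1 and 3, so its 2 lowest arrays were those of Zc3h12d. Flt3, Irf4, Itgax and Ccr7 also had replicates 2 and 4 as their 2 lowest transgenic arrays, while H2-Ab1, Sirpa, Dpp4, Itgae and Itgam did not. H2-Ab1 (12.92) and Sirpa (8.94) were highest among transgenic arrays on replicate 2. The part of these levels in the fall of Zc3h12d was not tested. In bulk samples fewer cells that express a gene and less RNA per cell cannot be told apart.

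Zc3h12a encodes regnase-1, the best studied member, which degrades the mRNAs of Il6 and Il12b. It was at 7.15, 7.55, 7.16 and 7.53 on wild-type arrays and at 6.76, 7.16, 7.13 and 6.79 on transgenic arrays. Transgenic replicates 1, 3 and 4 lay below all wild-type arrays, and replicate 2 reached the 2 lowest of them. Its log2 fold was -0.39 (SE 0.15, 95% interval -0.72 to -0.06), which did not pass over all genes (limma adjusted p = 0.277, unadjusted p = 0.0259). It was -0.33 without transgenic replicate 4.

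Zc3h12c, which encodes regnase-3, was bright and nearly level, with 10.65, 10.65, 10.79 and 10.57 on wild-type and 10.73, 10.55, 10.80 and 10.50 on transgenic arrays. The groups overlapped in full, and the log2 fold was -0.02 (SE 0.11, 95% interval -0.27 to 0.23). The interval limits any change of this transcript to well under that measured for Zc3h12d. The sign of the fold is not settled: it was 0.11 after quantile normalization again and 0.03 without transgenic replicate 4.

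Zc3h12b encodes the remaining family member, regnase-2. It was at 3.62, 3.81, 3.67 and 3.91 on wild-type and 4.25, 4.03, 4.02 and 4.13 on transgenic arrays, all below the median gene, where part of the signal can be background. All 4 transgenic arrays lay above the wild-type arrays, by a log2 fold of 0.35 (SE 0.11) that did not pass (limma adjusted p = 0.167). Of the 10 regulators 2 had separate groups, 1 with the transgenic arrays above (Zc3h12b) and 1 with them below (Zc3h12d). Among all 22180 genes the share with separate groups was 8.94%, with 4.00% above and 4.94% below, and nothing is read from the count.

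**Figure D2:**
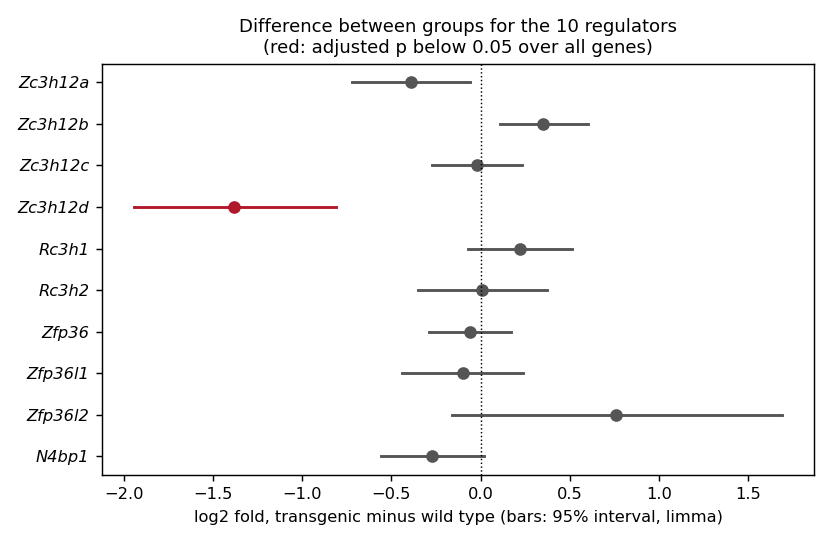
Log2 fold of each of the 10 regulators, transgenic minus wild type, with its 95% interval from limma. Zc3h12d, in red, is the only one past an adjusted p of 0.05, with an interval of -1.94 to -0.81, and Zfp36l2 has the widest interval (-0.16 to 1.69).

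The roquin genes did not pass. Rc3h1, which encodes roquin-1, a RING and zinc finger protein that restrains Icos and Tnf mRNA, was at 8.58, 8.79, 8.47 and 8.70 on wild-type and 9.04, 8.90, 8.93 and 8.57 on transgenic arrays. Transgenic replicates 1, 2 and 3 were higher than any wild-type array, and replicate 4 lay within the wild-type range. Its log2 fold was 0.22 (SE 0.13; limma adjusted p = 0.533), and 0.32 without transgenic replicate 4 (adjusted p = 0.211).

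Rc3h2, which encodes the paralogue roquin-2, ran from 9.24 to 9.49 in wild type and from 9.03 to 9.74 in transgenic arrays. The log2 fold was 0.01 (SE 0.16, 95% interval -0.35 to 0.37), and -0.01 with each array centred on its median. Transgenic replicates 1 and 3 (9.61 and 9.74) lay above the wild-type arrays and replicates 2 and 4 (9.21 and 9.03) below them, so the groups differed in spread (SD 0.11 and 0.34) more than in mean. Replicates 2 and 4 were also the lower transgenic arrays for Zc3h12d, Zc3h12c, Rc3h1, Zfp36, Zfp36l1 and N4bp1, but not for Zc3h12a, Zc3h12b or Zfp36l2.

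In the tristetraprolin family, Zfp36 and Zfp36l1 were very bright and differed little. Zfp36 encodes tristetraprolin, which targets Tnf mRNA and its own. It was at 13.31, 13.46, 13.44 and 13.37 on wild-type and 13.37, 13.26, 13.48 and 13.25 on transgenic arrays, close to the top of the scale, where differences can be compressed. The log2 fold was -0.06 (SE 0.10, 95% interval -0.29 to 0.17; limma adjusted p = 0.889), and -0.11 to -0.03 with an array left out. Its within-group SD of 0.09 was among the smallest, with 94.9% of all genes at a larger value.

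Zfp36l1 was read at 12.87 ± 0.11 in wild-type and 12.77 ± 0.30 in transgenic arrays (SD, n = 4), a log2 fold of -0.10 (SE 0.15; limma adjusted p = 0.859). The low value was that of transgenic replicate 4, at 12.35 against 12.79 to 13.02 on the others, and without it the fold was 0.04. A second probe set of the gene gave 11.04 ± 0.26 and 10.98 ± 0.06 (SD, n = 4), a log2 fold of -0.06 (SE 0.13). On that probe set transgenic replicate 4 was at 10.95, within the 10.92 to 11.05 of the other transgenic arrays.

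Zfp36l2, the third AU-rich element binder of the family, varied more between pools than any other regulator. It was at 7.55, 7.43, 8.68 and 8.71 on wild-type replicates 1 to 4 and at 8.70, 9.87, 8.96 and 7.89 on transgenic replicates 1 to 4. The wild-type arrays formed a low and a high pair, transgenic replicate 4 lay between them, and transgenic replicate 2 lay above all. The within-group SD was 0.76, against a median of 0.21 over all genes, and only 0.78% of genes had a larger one. The log2 fold of 0.76 (SE 0.42, 95% interval -0.16 to 1.69) did not pass (limma adjusted p = 0.490). It was 0.42 without transgenic replicate 2 and 1.09 without transgenic replicate 4.

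For 3 of the lists of markers of other cell types, the mean level was also highest on transgenic replicate 2. The mean level of 8 plasmacytoid dendritic cell markers was 7.69 there, against 6.47 to 7.01 on the other transgenic and 6.08 to 6.85 on wild-type arrays. For 10 markers of NK and innate lymphoid cells it was 7.68, against 6.57 to 6.91 and 6.23 to 7.30. For 11 monocyte and macrophage markers it was 7.20, against 6.27 to 6.86 and 5.96 to 6.33. Among the markers in these lists, Siglech (plasmacytoid list) was at 7.52 on that array and Ly6c2 (monocyte list) at 10.38. For both it was the highest of the 8 arrays. Ncr1 (NK) was at 8.41 there and at 8.47 on wild-type replicate 4. In these 3 lists 1 of 8, 1 of 10 and 2 of 11 markers were called, all higher, beside 0.839% of all genes: Bst2 (log2 fold 0.76), Adgre1 (1.29), Csf1r (1.16) and Klrd1, which went from 9.18 to 10.68. In the same order, 7 of 8, 8 of 10 and 8 of 11 folds were positive, with medians of 0.42, 0.15 and 0.30. An unadjusted p below 0.05 in limma was found for 1, 1 and 4 of them, beside 13.2% of all genes. Ly6c2 (1.81, SE 0.77), Cd14 (0.74, SE 0.26), Ccr2 (0.53, SE 0.50), C1qc (0.30, SE 0.19) and C1qb (0.11, SE 0.16) were higher without passing. Mertk (0.07), Fcgr1 (-0.03), Lyz2 (-0.08) and C1qa (-0.17) were nearly level or lower. Tcf4 (-0.21) in the plasmacytoid and Gzmb (-0.31) in the NK list were lower. The called markers did not all follow transgenic replicate 2. Klrd1 was highest on transgenic replicate 4 (11.18) and Bst2 on transgenic replicate 3 (10.47). Adgre1 was at 7.67 on both transgenic replicates 1 and 2, and Csf1r at 7.62 and 7.64. Each called marker was above every wild-type array on all 4 transgenic arrays, as were 4.00% of all genes. Within the wild-type group, replicate 4 had the highest Zfp36l2 and the highest NK and monocyte means, while replicate 2 had the lowest Zfp36l2 and the highest plasmacytoid mean. The part of these markers in the level of Zfp36l2 was not tested.

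**Figure D3:**
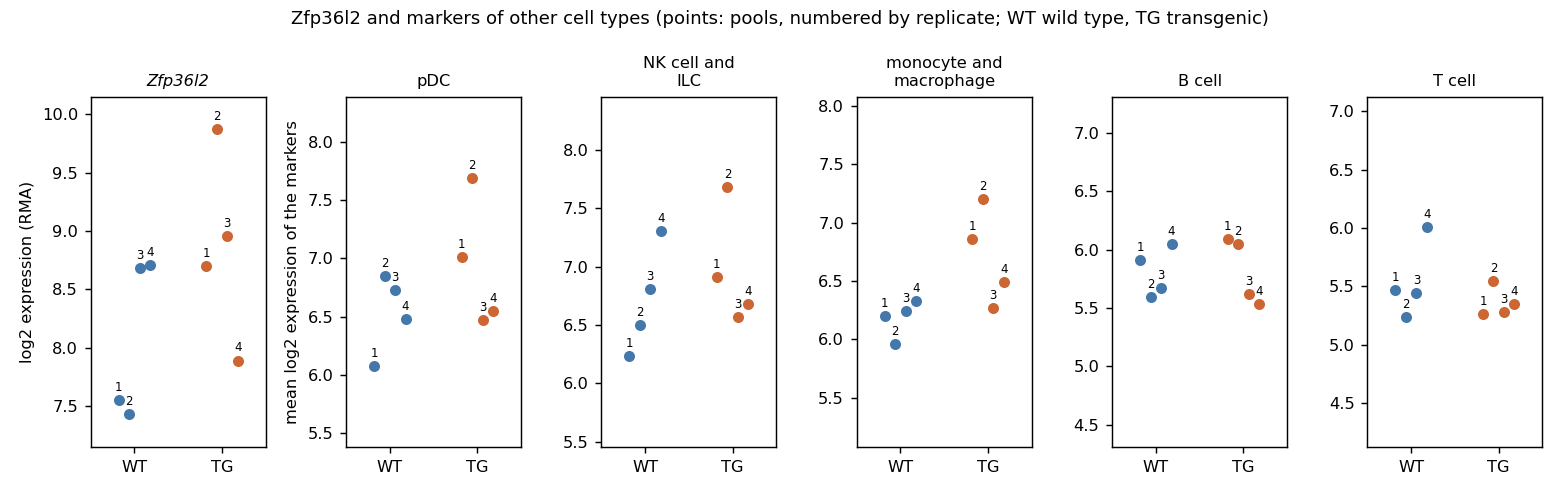
Log2 expression of Zfp36l2 (left) and mean log2 expression of 5 marker lists on each array, all panels with the same vertical span. Points are pools numbered by replicate. Transgenic replicate 2 is the highest point for Zfp36l2 (9.87) and for the plasmacytoid (7.69), NK (7.68) and monocyte (7.20) lists, while the B and T cell lists overlap between groups.

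N4bp1 encodes a ribonuclease with a KH-like and a PIN-like domain that restrains NF-kB dependent cytokines and is cleaved by MALT1 and caspase-8. It was at 8.80, 8.69, 8.72 and 9.01 on wild-type and 8.72, 8.49, 8.66 and 8.26 on transgenic arrays. The groups overlapped at 1 transgenic array, replicate 1. The log2 fold was -0.27 (SE 0.13, 95% interval -0.56 to 0.02; limma adjusted p = 0.418), and -0.18 without transgenic replicate 4.

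The genes whose pattern over the 8 arrays was most like that of Zc3h12d were Tbc1d17, Mtmr14, Akt1s1, Csrp1 and Pla2g4f. Likeness was the root mean square difference between profiles, each centred on its own mean, over 17431 named genes, and it ran from 0.19 to 0.26 log2 units for these 5. Since they were picked for their likeness to a gene that fell, their folds, p-values and low arrays follow from the choice and are given as a description. By the same call as above, with 0.848% of all genes called lower, 4 of them were: Mtmr14 (means 8.78 and 7.77, limma adjusted p = 0.0323), Akt1s1 (log2 fold -1.09, 0.0418), Csrp1 (-1.19, 0.0336) and Pla2g4f (-1.32, 0.0204). Tbc1d17, at 9.68 ± 0.28 and 8.61 ± 0.52 (SD, n = 4), missed the threshold (limma adjusted p = 0.0609). For Zfp36l2 the nearest profiles, looked up after its values were seen, were Exosc1, Nucb2, Tifab, Tmem229b-ps and Iqgap2, at 0.34 to 0.39 log2 units. None of these 5 passed, with limma adjusted p from 0.0635 (Iqgap2) to 0.583 (Tifab).

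**Figure D4:**
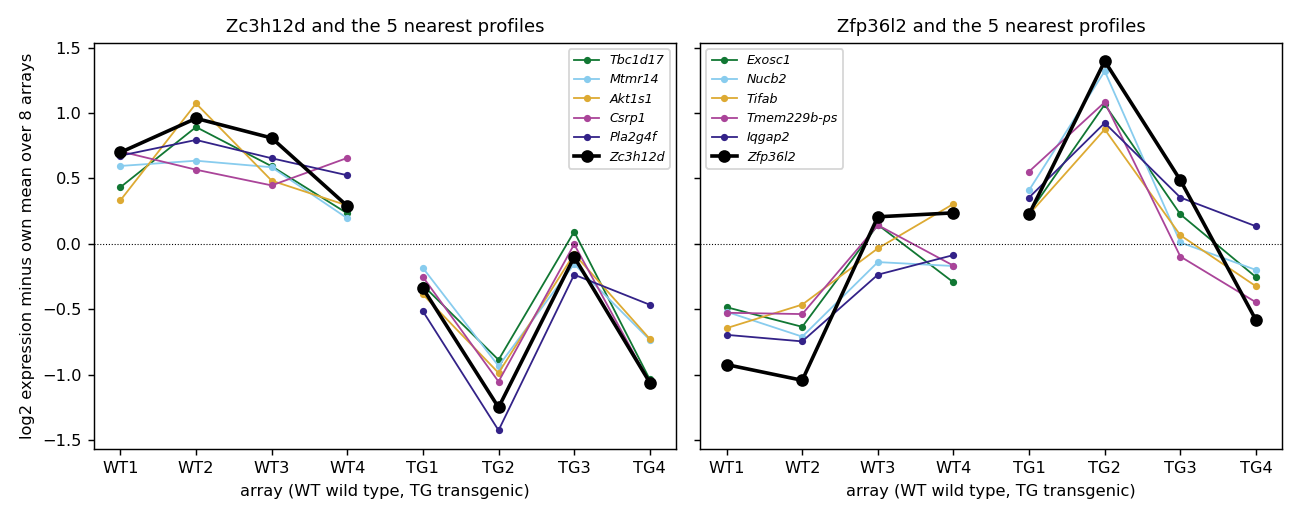
Log2 expression minus the gene's own mean over 8 arrays for Zc3h12d (left) and Zfp36l2 (right), in black, each with the 5 genes of most similar profile. Lines only join the arrays of a group to keep genes apart. For Zc3h12d all wild-type points lie above all transgenic points, and for Zfp36l2 transgenic replicate 2 is the highest point of each gene.

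Among 30 reported targets of these regulators, mRNAs known from other studies to be bound or degraded by at least 1 of them, 6 fell, 0 rose and 24 did not pass. The median log2 fold of the list was -0.23 and 23 members were negative, against -0.002 and 50.3% over all genes, and 0.848% of all genes were called lower. Without wild-type replicate 4 the median was -0.14. Of the 30 targets, 9 had a mean level below that of the median gene, where part of the signal can be background. Over the 21 others the median was -0.22. Cxcl1 and Cxcl2, chemokines that attract neutrophils, Tnf, Tnfrsf4, which encodes the costimulatory receptor OX40, Cd274, which encodes PD-L1, and Nfkbid, an atypical inhibitor of NF-kB, were the 6. Some of these falls were known when the list was drawn up, so its count is not independent evidence of a direction.

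Tnf was at 8.31, 8.09, 8.68 and 8.75 on wild-type and 6.43, 7.22, 7.16 and 7.32 on transgenic arrays. The groups did not overlap, and the log2 fold was -1.43 (SE 0.21; limma adjusted p = 0.0128). Cxcl1 was at 7.73 ± 0.37 and 5.86 ± 0.27 (SD, n = 4; adjusted p = 0.00256 in limma). Cxcl2 had a log2 fold of -1.21 (SE 0.21), Tnfrsf4 of -1.01 (SE 0.13), Cd274 of -0.75 (SE 0.12) and Nfkbid of -0.74 (SE 0.14).

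Of these 6, Cxcl1, Tnf and Tnfrsf4 passed whichever array was left out. None of the 6 passed without variance moderation, where the adjusted p ran from 0.0691 (Cxcl1) to 0.149 (Cxcl2). Cxcl2 did not pass without transgenic replicate 2 (limma adjusted p = 0.0545) or wild-type replicates 1 (0.0539), 2 (0.0719), 3 (0.0729) or 4 (0.0522). Cd274 did not pass without wild-type replicates 2 (0.0582) or 3 (0.0578). Nfkbid did not pass without wild-type replicates 2 (0.0802), 3 (0.0645) or 4 (0.0795) or transgenic replicates 1 (0.0556), 2 (0.0532) or 3 (0.0664), nor with the replicate number as a block (0.0645). In that block fit Zc3h12d still passed (adjusted p = 0.0418 in limma).

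The classical targets of regnase-1 and the roquins did not all move with Tnf. Il6 was at 8.28, 8.18, 8.32 and 9.03 on wild-type and 8.83, 9.20, 8.09 and 8.80 on transgenic arrays, with overlapping groups and a log2 fold of 0.28 (SE 0.25; limma adjusted p = 0.726). With an array left out the fold of Il6 ran from 0.12 (without transgenic replicate 2) to 0.49 (without transgenic replicate 3), and it was 0.47 without wild-type replicate 4 and 0.18 without wild-type replicate 2. Il12b, which encodes the p40 chain of interleukins 12 and 23, was at 8.49 ± 0.20 and 8.35 ± 0.27 (SD, n = 4; adjusted p = 0.794 in limma), a log2 fold of -0.14 that was -0.02 without transgenic replicate 4. Icos had a log2 fold of -0.13 (SE 0.17), which ran from -0.26 to -0.02 with an array left out. Nfkbiz, a cofactor of NF-kB that regnase-1 and the roquins both target, was at -0.64 (SE 0.14) and just missed the threshold (limma adjusted p = 0.0591), though Nfkbiz passed without wild-type replicate 1 (0.0343), under both filters on dim genes (0.0373 and 0.0424) and with array weights (0.0428). Its groups did not overlap. Myc (0.47, SE 0.22) and Il10 (0.32, SE 0.15) had the highest moderated statistics of the list and did not pass, and Myc was at 0.29 without transgenic replicate 2. Il10 was dim, at 4.47 in wild-type and 4.79 in transgenic arrays, below the 5.32 of the median gene. In all, 9 of the 30 had groups that did not overlap, where over all genes it was 8.94%.

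**Figure D5:**
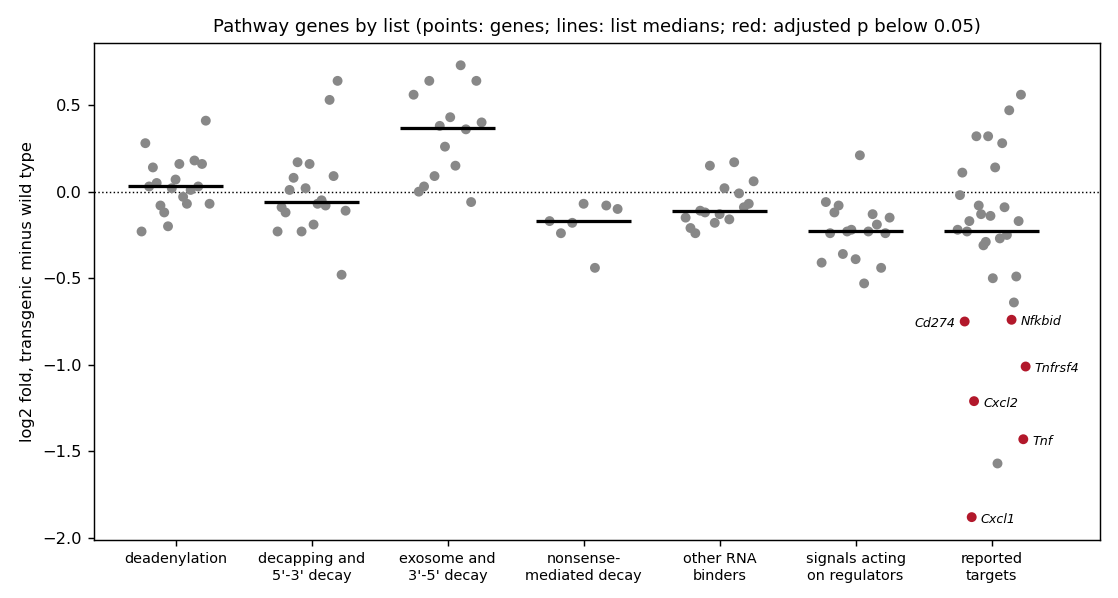
Log2 fold, transgenic minus wild type, of each measured gene in 7 pathway lists. Points are genes, black lines are list medians and red marks an adjusted p below 0.05. The only called genes are 6 reported targets, all lower, and the median of the exosome list is 0.37.

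None of the 17 measured genes of the signals that act on the regulators passed, and 16 of them were negative, with a median of -0.23. Over all genes 50.3% were negative. The mean level of the list was 8.88 to 8.98 on wild-type and 8.54 to 8.84 on transgenic arrays, so the groups did not overlap. The median was -0.16 without transgenic replicate 4. That array was the lowest of the 8 for this list, and also for decapping (7.90), nonsense-mediated decay (7.14) and other RNA binders (7.99). It was not the lowest for deadenylation, the exosome or the reported targets. Mapkapk2, the kinase MK2 that phosphorylates and restrains tristetraprolin, had the lowest statistic. It was at 9.58, 9.67, 9.29 and 9.85 on wild-type and 9.07, 9.17, 9.13 and 8.90 on transgenic arrays, without overlap (log2 fold -0.53, SE 0.14; limma adjusted p = 0.0888). Tank, an adaptor in NF-kB signalling, was at -0.44 (SE 0.13). Malt1, the protease that cleaves regnase-1, the roquins and N4BP1, was at 10.51 ± 0.19 and 10.12 ± 0.21 (SD, n = 4; log2 fold -0.39, limma adjusted p = 0.238). The highest statistics were those of Mapk14, which encodes p38 (0.21, SE 0.26), and Btrc (-0.06, SE 0.25). Mapk14 ran from 0.00 without transgenic replicate 2 to 0.40 without transgenic replicate 4. At an unadjusted p below 0.05 limma gave 5 of the 17, beside 13.2% of all genes.

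The general decay machinery did not pass either. None of 19 deadenylation genes was called, and their median was 0.03. At an unadjusted p below 0.05 limma gave 1 of them, beside 13.2% of all genes. The mean level of that list ran from 8.18 to 8.27 in wild-type and from 8.24 to 8.28 in transgenic arrays. The antiproliferative adaptors of CCR4-NOT were at both ends: Btg2 at 0.28 (SE 0.11) and Tob1 at 0.41 (SE 0.21), Btg1 at -0.23 (SE 0.13), with the deadenylase Cnot6 at -0.20 (SE 0.12). Tob1 was at 7.17 on transgenic replicate 4 and 6.23 to 6.41 on the other transgenic arrays, and its fold was 0.20 without that array. Cnot6 was at -0.13 without transgenic replicate 3. Cnot1, the scaffold of the complex, has no probe set naming it alone and was not analysed here.

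None of 18 genes of decapping and decay from the 5′ end was called. An unadjusted p below 0.05 in limma was found for 3 of these 18, beside 13.2% of all genes. The median of the list was -0.06, or 0.01 without transgenic replicate 2. Patl1, a decapping activator, had a log2 fold of -0.48 (SE 0.16) and Lsm14b of -0.19 (SE 0.16), while Lsm7 (0.64, SE 0.26) and Lsm5 (0.53, SE 0.13; limma adjusted p = 0.0732), subunits of Lsm rings, were highest. Single arrays moved 3 of these: Patl1 was at -0.31 without transgenic replicate 4, Lsm7 at 0.39 without transgenic replicate 2 and Lsm14b at -0.08 without wild-type replicate 2. Lsm5 passed in limma when genes with a mean under 6 were left out (adjusted p = 0.0462). Xrn1, the exonuclease that degrades decapped mRNA, was at -0.11 (SE 0.16).

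The exosome, which degrades RNA from the 3′ end, and its cofactors were higher on average in transgenic arrays. Of 14 measured genes 0 passed, 13 were positive and limma gave 8 of them an unadjusted p below 0.05, where the share of all genes was 13.2%. The median was 0.37, against -0.002 over all genes, and the list's mean level was 7.25 to 7.38 on transgenic and 6.93 to 7.02 on wild-type arrays, without overlap. That median was 0.30 without transgenic replicate 1, 0.45 without transgenic replicate 4 and 0.31 when genes with a mean under 6 were left out. Dis3, a catalytic subunit, was at 5.75, 5.88, 5.86 and 6.17 on wild-type and 6.33, 6.65, 6.41 and 6.49 on transgenic arrays. Its log2 fold was 0.56 (SE 0.12, limma adjusted p = 0.0595). Every transgenic array lay above the wild-type arrays, and Dis3 passed in limma when genes with a mean under 6 were left out (adjusted p = 0.0384), when genes dimmer than the median were (0.0443) and with array weights (0.0476). Wdr61, a subunit of the SKI complex that feeds the exosome, was at 0.40 (SE 0.12). Skiv2l, the helicase of that complex, was at -0.06 (SE 0.16), and Dis3l at 0.00 (SE 0.21).

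In nonsense-mediated decay 0 of 7 measured genes passed, and 1 had an unadjusted p below 0.05 in limma, beside 13.2% of all genes. All 7 folds were negative, where 50.3% were over all genes. The median of the list was -0.17, or -0.08 without transgenic replicate 4. Smg9 was at 7.35 ± 0.12 and 6.91 ± 0.07 (SD, n = 4; limma adjusted p = 0.0717, and 0.0462 when genes with a mean under 6 were left out). Smg5 was at -0.24 (SE 0.16; -0.37 without transgenic replicate 3), Smg8 at -0.07 (SE 0.16) and Upf1, the helicase at the centre of the pathway, at -0.08 (SE 0.13; -0.17 to -0.01 with an array left out). Of 15 other proteins that bind AU-rich elements or stem-loops 0 passed. An unadjusted p below 0.05 in limma was found for 0 of them, beside 13.2% of all genes. The median of that list was -0.11, or -0.02 without transgenic replicate 4. Arid5a, which protects Il6 mRNA from regnase-1, was at 6.49 ± 0.03 and 6.33 ± 0.20 (SD, n = 4). Celf1 (-0.24, SE 0.13) and Caprin1 (-0.21, SE 0.11) were lowest, and Syncrip (0.17, SE 0.12) and Hnrnpl (0.15, SE 0.14) highest. Celf1 was at -0.15 without transgenic replicate 4, and without transgenic replicate 2 Syncrip was at 0.08, Hnrnpl at 0.06 and Arid5a at -0.25.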

How the data were processed

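Per the submitters' processing notes, the authors used RMA and Partek to make the deposited log2 values per probe set, with no version named. RMA makes array distributions alike, so a shift of all genes would not be seen. Of 34390 probe sets, 23521 name 1 gene in the platform annotation, 1814 several and 9055 none. The first kind gave 22180 genes, each read from the probe set with the highest mean over 8 arrays. No filter was applied, and arrays have no read depth: their number and the signal above background limit precision.

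Transgenic minus wild type was fitted on all genes in R 4.3.3 (limma 3.58.1; lmFit, then eBayes), without covariates, and tested on simulated data. Errors are the SD over arrays or the moderated SE. The regulators and 7 pathway lists were chosen with earlier results of these data known, and lists are described by counts and medians. Of each list the text names up to 6 called genes, the 2 highest and 2 lowest by moderated statistic and a few fixed genes, and of the nearest profiles 5. Markers were chosen from fixed lists of 8 cell types. Mean levels over the 8 arrays were 4.67 to 4.90 for neutrophil markers and 4.97 to 5.28 for those of stroma and endothelium. Of these 2 lists limma called 0 of 8 and 0 of 8 genes. At an unadjusted p below 0.05 it gave 1 and 2, beside 13.2% of all genes. Alternatives changed the moderation, filter, normalization, probe set rule, array weights, replicate block and arrays included.

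Same-numbered arrays did not deviate together (correlations of -0.03, -0.03, 0.08 and -0.02, against -0.10 to 0.13 for differently numbered arrays). The main fit therefore did not pair arrays by number, and whether the number marks paired pools is not known. Figures used matplotlib 3.10.9.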

Additional observations from a re-analysis of the deposited data

Results flagged for a closer look

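In 5 of 98 groups of 4 arrays, over the 49 genes looked at, 1 array lay far from the others by Dixon's test of the gap to the nearest array over the group's range. Chance gives about 1 in 20. None of the 10 regulators was among them. Patl1 was at 8.43 on transgenic replicate 4, against 9.05 to 9.17 on the other transgenic arrays. Lsm7 was at 8.47 on wild-type replicate 4, against 7.98 to 8.02. Upf1 was at 6.64 on wild-type replicate 3, against 6.97 to 7.03, and Hnrnpl was at 9.03 on the same array, against 9.31 to 9.35. Il6 was at 9.03 on wild-type replicate 4, against 8.18 to 8.32.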

How the results depend on the processing

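The count of 374 called genes was 35 without variance moderation, 187 with the replicate number as a block, and 106 to 379 with an array left out. The count of called regulators (1) was 0 without moderation and 0 to 1 with an array left out, and it stayed at 1, Zc3h12d, with the block and the other 9 alternatives. The log2 fold of Zc3h12c turned positive after quantile normalization again (0.11) and with array weights (0.02), and ran from -0.07 to 0.03 with an array left out. That of Rc3h2 was -0.01 with each array centred on its median, and -0.11 to 0.13 with an array left out. Zfp36l1 ran from -0.18 to 0.04. Among pathway genes, Dis3l was at -0.03 after quantile normalization, -0.02 with centring, -0.05 with array weights and -0.12 to 0.19 with an array left out. Btrc was at 0.07 with array weights and ran from -0.23 to 0.12, Xrn1 from -0.20 to 0.01, Skiv2l from -0.15 to 0.08 and Smg8 from -0.18 to 0.06. The cause of these turns was not tested. Of 189 refitted values of the regulators, 173 kept their sign and their side of the threshold, 6 lost the call and 10 changed sign. Zc3h12b drops out of both filters on dim genes.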
